A study of Mus musculus with 15 samples.

Results

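The step from PN5 zygotes to early 2-cell embryos was followed in offspring of Eif4e1b knockout (KO) mothers. The comparison rests on 5 of the 15 ribosome-profiling libraries of the study, chosen by their labels: 2 of early 2-cell embryos and 3 of PN5 zygotes. All 5 came from B6D2F1 mice whose mothers were Eif4e1b KO and carried Rpl22 HA, a tagged protein of the large ribosomal subunit, so the deletion and the tag are common to both groups, which differ in stage and in the number of embryos pooled. Each library pooled about 200 zygotes or about 100 early 2-cell embryos, whose lysate was digested with 100 U of RNase I for 45 min, pulled down on anti-HA beads for 4 h and amplified with 22 PCR cycles. The 3 PN5 and 3 early 2-cell libraries of Het mothers, which carried the same tag, served as the reference for the same step. No label ties the libraries to separate mothers, so the p-values cover the spread between these samples alone, which may be technical.

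An egg stores mRNAs made during its growth and, with its own genome silent, lives on them after fertilisation. Between the zygote and the 2-cell stage these maternal mRNAs are translated, then deadenylated and cleared, while the embryo's genome is switched on. Eif4e1b is an egg-specific relative of eIF4E, the protein that binds the mRNA cap and recruits the ribosome, and related factors can also hold an mRNA in a stored state. The question put by the title and design of the study is how the loss of this factor changes translation of maternal mRNAs ahead of genome activation. The comparison here asks which mRNAs on tagged ribosomes differed between these stages without it. In pooled embryos, fewer ribosomes on an mRNA and less of that mRNA cannot be told apart. The smaller number of embryos pooled and less RNA per embryo cannot be told apart either.

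Depth was 1 limit on what could be seen. The early 2-cell KO libraries held 1623 and 1135 counts in protein-coding genes, against 15395, 11811 and 39997 in the PN5 KO libraries, a 16.2-fold lower mean. Levels are therefore given as shares of a library's protein-coding counts, after rRNA and mitochondrial rows were dropped, and 1 count equals 0.0616% and 0.0881% in the early 2-cell KO libraries. A group with no count is read as under 3 pooled counts, which is 0.109% in early 2-cell KO and 0.00446% in PN5 KO, for counting error only.

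The narrower list of mRNAs in early 2-cell KO went with that depth. A count was found for 396 and 374 protein-coding genes in early 2-cell KO and for 914, 1162 and 1159 in PN5 KO. Thinned to 1135 counts, the expected numbers were 335 and 374 in early 2-cell KO and 296, 429 and 288 in PN5 KO. The means at equal depth were 355 ± 27.3 (SD, n = 2) and 338 ± 79.1 (SD, n = 3), with a two-sided exact permutation p of 0.9 where 0.1 is the smallest that 10 arrangements allow. The 10 most counted mRNAs took 24.7 ± 4.80% in early 2-cell KO (SD, n = 2) and 36.8 ± 6.53% in PN5 KO (SD, n = 3), with an exact permutation p of 0.2. PN5 KO replicate 3 stood apart in composition, with 36.0% of all its counts in mitochondrial rows where the other 4 libraries had 9.08% to 12.1%.

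**Figure D1:**
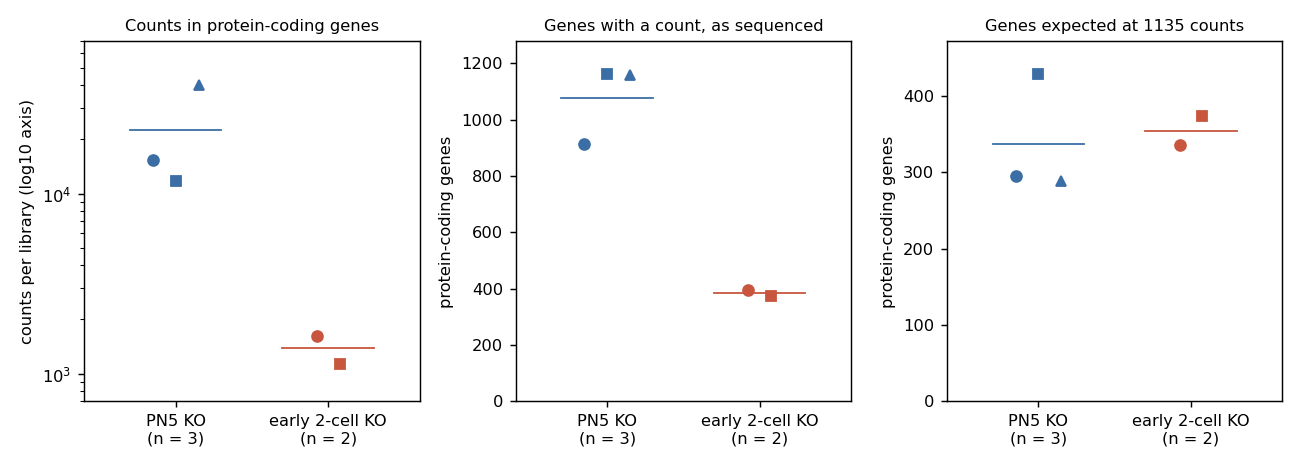
Points are single libraries (circle, square and triangle for replicates 1, 2 and 3) and lines are group means; the panels give the counts in protein-coding genes on a log10 axis, the number of such genes with a count, and the number expected after thinning each library to the depth of the shallowest. The early 2-cell KO libraries lie below all PN5 KO libraries in the first and second panels, and in the third the 335 and 374 genes of early 2-cell KO lie inside the PN5 KO range of 288 to 429.

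The labelled genotype and stages could be checked only in part. Eif4e1b (ENSMUSG00000074895, chromosome 13, 54783994 to 54788459 on GRCm38) and Rpl22 were at 0 counts in all 5 libraries and in the 6 Het libraries, so neither the deletion nor the tag shows in the counts. Of 20 listed oocyte and zygote markers, 5 had counts in PN5 KO, where they summed to 0.260%, 0.00847% and 0.0675%, and all were at 0 in early 2-cell KO. Of 38 genes listed for the 2-cell stage, the Zscan4 genes were at 0 throughout and Nelfa, named after its values were seen, was the only one with counts in early 2-cell KO (6 and 0, against 0, 5 and 4 in PN5 KO). The other 3 with counts, Tcstv1, Tdpoz3 and Zfp352, each had 2 in PN5 KO replicate 3 and 0 in both early 2-cell KO libraries, so these markers do not show the stage. Of 16 cumulus and granulosa markers, 4 had counts, in PN5 KO alone, with sums of 0.318%, 0.0847% and 0.888%. The most counted was Cyp11a1, the side-chain cleavage enzyme of steroid synthesis, with 47, 0 and 340 counts. The part of such cells in the differences below was not tested. No sperm marker had a count, and of the blood markers only Ptprc had 1.

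No mRNA passed the test across all genes. With edgeR's quasi-likelihood test and Benjamini-Hochberg adjustment, 0 of 464 tested genes (0%) differed at an adjusted p under 0.05, and the smallest adjusted p was 0.608. At an unadjusted p under 0.05 edgeR gave 24 genes with a higher share in early 2-cell KO (5.17% of those tested) and 9 with a lower share (1.94%). This split turned with the scaling, to 7 higher and 28 lower with TMM factors, 9 and 24 with DESeq2 size factors, and 6 and 18 with all counts as library size. Those scalings moved the median log2 fold change of all genes by -1.35, -1.03 and -0.96, so a direction below is always relative to the protein-coding total. The low-count filter works on shares, so a few counts in a shallow early 2-cell library could admit a gene that is high there. Among the 127 genes with a mean of at least 20 counts the split was 5 higher and 9 lower, and with no filter 80 and 16. DESeq2's Wald test called 8 genes at an adjusted p under 0.05, out of the 166 to which it gave one, and limma-voom called 1 of 464. The 8 were Cntln, Nol8, Creb5, Gigyf2 and Nop58, higher in early 2-cell KO, and Zrsr2, Canx and Dek, at 0 there; the 1 was the predicted gene Gm42427 (0, 0 and 0 counts in PN5 KO, 3 and 5 in early 2-cell KO).

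The mean share was higher in early 2-cell KO for 203 of the tested genes (43.8%) and lower for 235 (50.6%). Both early 2-cell KO libraries lay above all 3 PN5 KO libraries for 63 genes (13.6%). They lay below all 3 for 49 (10.6%), of which 24 were at 0 where under 3 pooled counts would have been expected. The 63 include genes that a few early 2-cell counts could carry through the filter. For 185 genes (39.9%) both early 2-cell KO libraries were at 0. The count at 0 carries little by itself, since 342 of the tested genes (73.7%) would have given under 3 pooled counts in early 2-cell KO at their PN5 KO share.

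Of the 10 mRNAs with the highest mean share in PN5 KO, 6 were also among the 10 highest in early 2-cell KO, and all 10 had a lower mean share there. Ncl (ENSMUSG00000026234, chromosome 1, 86344719 to 86359455), which encodes the nucleolar protein nucleolin, took 10.4%, 5.16% and 7.23% in PN5 KO and 2.77% and 6.34% in early 2-cell KO. Its ranges overlapped, and the log2 fold change was -0.74 ± 0.73 (SE, edgeR adjusted p = 0.735). Eif5b, the GTPase that joins the ribosomal subunits at the start codon, took 4.24%, 4.70% and 5.35% in PN5 KO and 2.83% and 3.70% in early 2-cell KO. The early 2-cell KO libraries thus lay below all PN5 KO libraries for Eif5b, by 1.46-fold in the means, with an edgeR adjusted p of 0.788. Nexn, an actin-filament protein, was the steadiest of the leading mRNAs at 4.98%, 4.98% and 2.69% in PN5 KO and 2.96% and 4.93% in early 2-cell KO. Its log2 fold change was -0.10 ± 0.97 (SE) and turned positive without PN5 KO replicate 1, PN5 KO replicate 2 or early 2-cell KO replicate 1.

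Other leading mRNAs were lower in early 2-cell KO by similar amounts. Top1, a DNA topoisomerase, stood at 2.99%, 2.00% and 2.09% in PN5 KO and 0.801% and 1.94% in early 2-cell KO. Lrrfip1, an actin- and nucleic-acid-binding protein, stood at 2.27%, 1.66% and 1.85% in PN5 KO and 0.801% and 1.50% in early 2-cell KO. For both, the groups did not overlap, though the upper early 2-cell KO library came close to the lowest PN5 KO library. Map1b, a microtubule-binding protein, had means of 1.69 ± 0.514% (SD, n = 3) and 0.965 ± 0.754% (SD, n = 2), and the kinase Rock1, which drives actomyosin contraction, had 1.67 ± 0.917% and 0.929 ± 0.181%; both pairs of ranges overlapped.

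The remaining leading mRNAs were missing from whole libraries. Acbd3 (ENSMUSG00000026499, chromosome 1, 180726043 to 180754204), which encodes a Golgi protein, took 4.37% and 5.89% in PN5 KO replicates 1 and 3 and was at 0 in PN5 KO replicate 2 and in both early 2-cell KO libraries. Canx, the endoplasmic reticulum chaperone calnexin, followed the same layout, with 400, 0 and 1261 counts in PN5 KO and 0 in early 2-cell KO. Against the floor of 3 pooled counts, the PN5 KO mean was at least 31.4-fold higher for Acbd3 and at least 17.6-fold higher for Canx. These bounds cover counting error only, and not the spread that left PN5 KO replicate 2 at 0. The fitted log2 fold changes were -12.2 ± 6.11 (SE, edgeR adjusted p = 0.664) for Acbd3 and -11.4 ± 7.85 (SE, edgeR adjusted p = 0.735) for Canx. Anp32b, a histone chaperone, took 5.29%, 2.44% and 6.47% in PN5 KO and 0 and 2.82% in early 2-cell KO, so here the early 2-cell KO libraries disagreed with each other. The 10 leading mRNAs summed to 34.3% in PN5 KO and 17.6% in early 2-cell KO; since they were picked by their PN5 KO share, this is a description. In the Het libraries, which that choice did not use, 6 of the 10 lay below PN5 Het in all 3 early 2-cell libraries, where 10.1% of tested genes did. Most of the 10 were also high in PN5 Het, such as Eif5b at a mean of 6.20%. A highly counted mRNA can be seen to lie below more readily than most tested genes, so this too is a description.

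**Figure D2:**
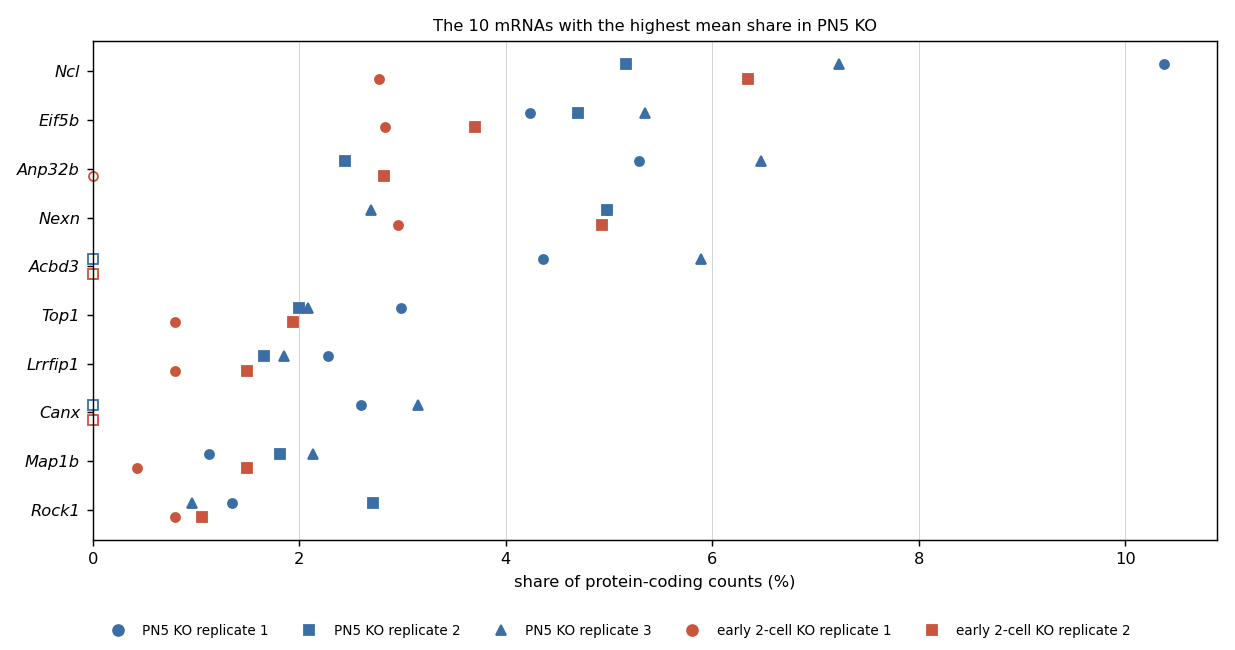
Share of protein-coding counts (%) of the 10 mRNAs with the highest mean share in PN5 KO, 1 point per library, with open symbols at 0. Ncl, Eif5b and Nexn stayed at 2.77% or more in both early 2-cell KO libraries, while Acbd3 and Canx were at 0 in both and also in PN5 KO replicate 2.

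Some mRNAs with a clear PN5 KO share had no count in an early 2-cell KO library, and the same happened between PN5 KO libraries; the difference in frequency was not tested. Among mRNAs with a share of at least 0.4% in PN5 KO, 24 of 64 pairs of an mRNA and an early 2-cell KO library were at 0 (37.5%). Predicting each PN5 KO library from the others at the same cut gave 18 of 102 pairs at 0 (17.6%). The like shares were 31 of 105 (29.5%) in early 2-cell Het and 23 of 113 (20.4%) in PN5 Het. The smallest expected counts in these pairs were 4.62 in early 2-cell KO and 48.3 in PN5 KO, so the depth behind a 0 differs between them. This measure was chosen after the data were seen.

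The next 10 mRNAs had the smallest p among those lower in early 2-cell KO with counts in at least 2 PN5 KO libraries. Clone and predicted-gene names were left out. All 10 had counts in all 3 PN5 KO libraries and were nearly absent afterwards. Since they were picked for being lower in these same libraries, this is a description. Of the 10, 9 were at 0 in both early 2-cell KO libraries. Cdk11b (ENSMUSG00000029062, chromosome 4, 155624841 to 155649935), a cyclin-dependent kinase of transcription and splicing, had 219, 97 and 766 counts in PN5 KO, a share of 1.42%, 0.821% and 1.92%, and 0 in both early 2-cell KO libraries. At its PN5 KO share, 38.2 pooled counts would have been expected, so the PN5 KO mean was at least 12.7-fold higher (edgeR adjusted p = 0.664). Cenpe (ENSMUSG00000045328, chromosome 3, 135212563 to 135273540), the kinesin that moves chromosomes at the kinetochore, had 111, 62 and 224 counts in PN5 KO and 0 in early 2-cell KO, at least 5.53-fold higher in PN5 KO (edgeR adjusted p = 0.664). Its 3 PN5 KO shares were close to each other at 0.721%, 0.525% and 0.560%.

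The other mRNAs of this group had lower bounds. Phf20l1, a chromatin reader, had 40, 179 and 94 counts in PN5 KO, and its mean was at least 6.16-fold higher there. Ktn1 (kinectin, a kinesin-binding membrane protein) with 49, 51 and 65 counts and Phf3 (a reader of the RNA polymerase II tail) with 44, 16 and 116 gave bounds of at least 2.80-fold and 2.18-fold, and Nrd1, a metalloprotease with 74, 23 and 82 counts, lay between them. Septin7, a septin of the cleavage furrow, and Mdm4, an inhibitor of p53, gave at least 1.33-fold and 1.32-fold, and for Ddx21, a nucleolar RNA helicase with 20, 9 and 48 counts in PN5 KO, the depth allowed no fold. Nefh, a neurofilament subunit, had 50, 23 and 284 counts in PN5 KO and 1 and 0 in early 2-cell KO, a pooled ratio of 14.7 (95% exact counting interval 2.61 to 580).

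The Het libraries give the same mRNAs in another genotype, and entered their choice only through the filter and the spread shared in the model. Of the 10, 5 (Cenpe, Ktn1, Phf20l1, Nefh and Ddx21) were at 0 in all 3 early 2-cell Het libraries, as were 144 of all tested genes (31%). Nefh and Ddx21 were the only ones of the 10 whose early 2-cell Het libraries lay below all PN5 Het libraries, where 47 of all tested genes (10.1%) did. Cdk11b went the other way and is described below.

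Another 10 mRNAs had the smallest p among those higher in early 2-cell KO with counts in both of its libraries. Clone and predicted-gene names were again left out. The 10 summed to 0.849% in PN5 KO and 6.84% in early 2-cell KO. The groups did not overlap for any of them. Since these mRNAs were picked for being higher, with counts in both early 2-cell KO libraries, both statements follow largely from the choice and are a description. Ncor1 had a smaller p than any of them (edgeR unadjusted p = 0.00337) and was left out, with 18 and 0 counts in early 2-cell KO. Cntln (ENSMUSG00000038070, chromosome 4, 84881787 to 85131923), which encodes centlein, a linker of the centrosome's centrioles, had 25, 15 and 81 counts in PN5 KO and 18 and 24 in early 2-cell KO. These were 0.162%, 0.127% and 0.203% in PN5 KO against 1.11% and 2.11% in early 2-cell KO, a 9.83-fold higher mean, with a log2 fold change of 3.29 ± 0.99 (SE, edgeR adjusted p = 0.608). Gigyf2 (ENSMUSG00000048000, chromosome 1, 87326931 to 87450810), a partner of the cap-binding repressor 4EHP, had the tightest values, with 0.364%, 0.229% and 0.370% in PN5 KO and 1.29% and 1.15% in early 2-cell KO. Its mean was 3.80-fold higher and its log2 fold change 1.92 ± 0.87 (SE, edgeR adjusted p = 0.664). Cntln and Gigyf2 kept their sign under every scaling tried and without each of the 5 libraries.

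Creb5, a transcription factor of the CREB family, and Nop58 and Nol8, proteins of ribosome biogenesis in the nucleolus, followed. Creb5 had 9, 8 and 6 counts in PN5 KO and 6 and 10 in early 2-cell KO, that is, like numbers from libraries of very different depth, and a 13.3-fold higher mean share. Nol8 had 13, 15 and 17 counts in PN5 KO and 8 and 7 in early 2-cell KO, and a 6.55-fold higher mean share. Nop58 had 8, 2 and 12 counts in PN5 KO and 13 and 2 in early 2-cell KO. Its 14.8-fold higher mean share (0.489 ± 0.442%, SD, n = 2) leaned on early 2-cell KO replicate 1.

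Taf3, a TFIID subunit that reads histone H3 methylation, and Cecr2, a remodeller subunit with a bromodomain, also sat higher. Taf3 was at 0.117%, 0.0593% and 0.110% in PN5 KO and 2.03% and 0.176% in early 2-cell KO, so its log2 fold change of 3.53 ± 1.50 (SE, edgeR adjusted p = 0.664) came to 0.88 without early 2-cell KO replicate 1. Cecr2 was at 0.0779%, 0.0339% and 0.183% in PN5 KO and 0.986% and 0.529% in early 2-cell KO. The last 3 rested on a handful of counts, and such counts can carry a gene through the filter in a shallow library. Pcgf5, a Polycomb subunit, had 1, 0 and 0 counts in PN5 KO and 2 and 4 in early 2-cell KO, a pooled ratio of 146 (95% exact counting interval 17.7 to 6.72e+03). Tnik, a kinase, had 1, 0 and 2 against 1 and 2, and Rcor3, a corepressor, 0, 0 and 0 against 1 and 2. The Rcor3 mean in early 2-cell KO was 26.6 times the PN5 KO floor. This ratio leaves out the counting error of its 3 early 2-cell counts.

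Several of these mRNAs were also higher at the 2-cell stage in the Het libraries. Cntln, Nop58, Creb5, Tnik and Gigyf2, 5 of the 10, lay above all PN5 Het libraries in all 3 early 2-cell Het libraries, where 6.03% of tested genes did. To lie above, a gene needs counts in all 3, and 144 of all tested genes (31%) had none there. The 10 were picked with counts in both early 2-cell KO libraries, so all tested genes are not matched to them and this is a description. Gigyf2 went from 0.412 ± 0.126% in PN5 Het to 2.43 ± 1.03% in early 2-cell Het (SD, n = 3 each), and Cntln from 0.276 ± 0.205% to 1.16 ± 0.550%. Nop58 went from 0.0511 ± 0.0372% to 0.671 ± 0.741% and Creb5 from 0.0461 ± 0.0405% to 0.503 ± 0.469%. The edgeR log2 fold changes in Het were 2.55 ± 0.82 (SE) for Gigyf2, 2.07 ± 0.90 for Cntln, 3.74 ± 1.26 for Nop58 and 3.44 ± 1.25 for Creb5, each with an edgeR adjusted p of 0.296. Over all tested genes, 11 lay above in both genotypes, which is 17.5% of the 63 in KO and 39.3% of the 28 in Het, against 13.6% above in KO and 6.03% above in Het among all tested genes. These 11 needed counts in every early 2-cell library of both genotypes, so this overlap is a description too. Another 6, among them Top1, Lrrfip1, Nefh and Ddx21, lay below in both. These were 12.2% of the 49 in KO and 12.8% of the 47 in Het, near the 10.1% below in Het and the 10.6% below in KO among all tested genes.

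**Figure D3:**
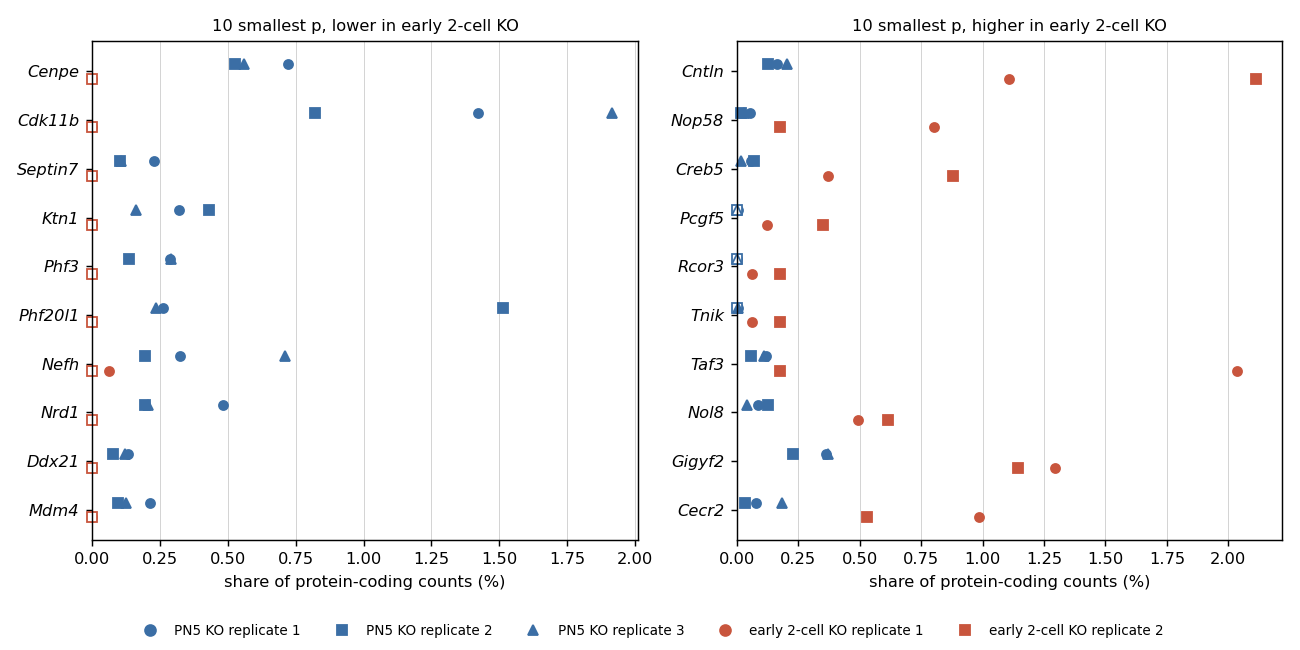
Share of protein-coding counts (%) of 10 genes in each direction, 1 point per library, with open symbols at 0. They had the smallest p among genes with counts in at least 2 libraries of the higher group, clone and predicted-gene names left out. No gene passed adjustment. In the left panel every early 2-cell KO point is at 0 except 1 count of Nefh, and in the right panel Gigyf2 and Nol8 have close replicates while the Taf3 mean rests on early 2-cell KO replicate 1.

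Among 21 gene lists, 13 held a mean of at least 0.5% of the PN5 KO counts, and for 3 of these the early 2-cell KO libraries lay below all PN5 KO libraries. None lay above. Each of the 3 rested on its most counted member. Medians of fitted log2 fold changes are read against -0.12 over all 464 genes, and medians with groups at 0 set to the floor against 0.83 over the 324 genes that allow a ratio or bound. Counts of members are read against all tested genes, of which 43.8% had a higher and 50.6% a lower mean share. Of all tested genes, 39.9% were at 0 in both early 2-cell KO libraries.

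Cytoskeletal and A-kinase anchoring genes, which shape the cell cortex and tether kinase A, summed to 17.1%, 16.0% and 16.5% in PN5 KO and 8.75% and 11.5% in early 2-cell KO. Of 31 tested members, 22 had a lower and 8 a higher mean share, against 50.6% and 43.8% of all tested genes. In early 2-cell KO 11 were at 0, as were 39.9% of all tested genes. The median was -0.82 fitted and -0.38 with the floor. No member passed adjustment in edgeR. At an unadjusted p under 0.05, 2 (Septin7 and Ktn1) were lower, as were 1.94% of all tested genes. Without Acbd3 the sums were 12.8%, 16.0% and 10.6% against 8.75% and 11.5% and overlapped. Mtdh, another member, had 7, 22 and 41 counts in PN5 KO and 0 in early 2-cell KO. In Het the sums were 16.2%, 16.0% and 27.5% in PN5 and 7.08%, 7.07% and 2.05% in early 2-cell embryos, and did not overlap without Acbd3 either.

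The list of histone variants and chaperones summed to 15.1%, 9.26% and 11.3% in PN5 KO and 4.87% and 7.67% in early 2-cell KO. No tested member was a histone: they were chaperones and other chromatin proteins, such as Top1, Psip1 and Atrx. The linker histones H1f1, H1f2 and H1f4, outside the list, had log2 fold changes of 0.027, 1.09 and 0.38 in KO. Of 14 tested members, 9 had a lower and 4 a higher mean share, with a median of -0.55 with the floor. Anp32b and Top1 carried most of it, and without Anp32b the sums of 9.85%, 6.82% and 4.85% in PN5 KO met the 4.87% and 4.85% of early 2-cell KO. Dek, a chromatin protein with 171, 0 and 0 counts in PN5 KO, and Supt16, a FACT subunit with 58, 5 and 0, were at 0 in early 2-cell KO. Hmgn5, a nucleosome-binding protein named after its values were seen, had 59, 53 and 202 counts in PN5 KO and 17 and 9 in early 2-cell KO. It was the only one of the 4 members with a higher mean share that lay above all PN5 KO libraries, and its log2 fold change of 1.05 ± 1.15 (SE) was below 0 with TMM factors, DESeq2 size factors or all counts as library size. In Het the list summed to 10.4%, 12.9% and 10.5% in PN5 and 2.83%, 4.17% and 3.94% in early 2-cell embryos, again without overlap.

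Endoplasmic reticulum, chaperone and stress genes summed to 3.44%, 0.940% and 3.58% in PN5 KO and 0.370% and 0.529% in early 2-cell KO. Of 6 tested members, 4 were at 0 in early 2-cell KO, where 39.9% of all tested genes were at 0. Among the 4 were Canx and Hsp90aa1, a cytosolic chaperone with 0, 38 and 98 counts in PN5 KO. Without Canx the sums were 0.838%, 0.940% and 0.427% against 0.370% and 0.529% and overlapped. In Het the whole list overlapped too, at 0.872%, 3.89% and 0.0232% in PN5 and 0.378%, 0% and 0.693% in early 2-cell embryos.

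The lists of transcription and chromatin genes overlapped between the stages in KO. Chromatin remodellers summed to 3.51%, 3.84% and 6.27% in PN5 KO and 5.18% and 3.88% in early 2-cell KO, and 10 of 21 tested members had a higher mean share. Beside Cecr2, Chd2 had 3, 8 and 0 counts in PN5 KO and 16 and 0 in early 2-cell KO, Rbbp7, a histone-binding subunit, 0, 0 and 0 and then 0 and 2, and Chd7 20, 17 and 72 and then 0 in both. The sign for Chd2 turned without early 2-cell KO replicate 1. DNA methylation and histone modification enzymes summed to 1.06%, 2.43% and 2.75% in PN5 KO and 4.44% and 2.73% in early 2-cell KO, with 10 of 19 tested members higher in mean share and 7 lower. Setd2, which methylates histone H3 on transcribed genes, had 9, 6 and 60 counts in PN5 KO and 10 and 3 in early 2-cell KO, and Kdm5b, a histone demethylase, had 0, 3 and 3 and then 1 and 4; neither overlapped in share.

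The RNA polymerase II machinery summed to 2.62%, 1.67% and 2.44% in PN5 KO and 3.27% and 0.793% in early 2-cell KO. Within it Taf3 and Cdk11b stood at opposite ends, and of the 9 tested members 5 had a higher and 4 a lower mean share. Supt5, an elongation factor, had 106, 0 and 0 counts in PN5 KO and Aff4, a scaffold of the super elongation complex, 2, 9 and 10, and both were at 0 in early 2-cell KO, where Aff4 would have given only 1.05 pooled counts at its PN5 KO share. Splicing and nuclear RNA-binding proteins summed to 4.13%, 6.06% and 3.97% in PN5 KO and 7.89% and 3.79% in early 2-cell KO. Of their 38 tested members 17 were at 0 in early 2-cell KO, where 39.9% of all tested genes were at 0. The 17 included Sfpq (68, 25 and 80 counts in PN5 KO) and Thoc2, an mRNA export subunit (39, 30 and 54). Rbm25, a splicing factor, was among the 10 leading mRNAs of early 2-cell KO at 1.91% and 0.529% against 0.396%, 0.635% and 0.345% in PN5 KO, with a log2 fold change of 1.42 ± 0.95 (SE, edgeR adjusted p = 0.735) that was -0.081 with TMM factors.

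The translation and ribosome lists did not separate the stages. Translation factors summed to 4.49%, 5.93% and 6.23% in PN5 KO and 6.47% and 4.41% in early 2-cell KO, with Eif5b the most counted, and of 10 tested members 5 had a higher and 4 a lower mean share. Eif3a, the largest subunit of the initiation factor eIF3, had 0, 50 and 192 counts in PN5 KO and 37 and 0 in early 2-cell KO, and its sign turned without early 2-cell KO replicate 1. Eif5, a GTPase activator of start-codon selection, had 4, 3 and 17 counts and then 10 and 0, and also turned without that library, and the cap-complex scaffold Eif4g1 had 0, 15 and 50 and then 0. Cytosolic ribosomal proteins summed to 0.611%, 1.01% and 0.330% in PN5 KO and 0.616% and 2.20% in early 2-cell KO. Rpl4 gave most of that, with 73, 18 and 65 counts in PN5 KO and 6 and 18 in early 2-cell KO, and Rps14 had 10, 33 and 43 and then 3 and 4, a log2 fold change of 0.82 ± 1.47 (SE) that was below 0 with TMM factors, DESeq2 size factors or all counts as library size.

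Nucleolar and ribosome biogenesis genes summed to 12.2%, 6.07% and 9.49% in PN5 KO and 7.83% and 7.84% in early 2-cell KO. Without Ncl, the sums were 1.84%, 0.906% and 2.26% in PN5 KO and 5.05% and 1.50% in early 2-cell KO. Of 23 tested members, 10 had a higher mean share, Nop58 and Nol8 at an unadjusted edgeR p under 0.05, and 13 a lower one, of which 10, such as Ddx21, were at 0. Of all tested genes, 5.17% were higher at that p and 39.9% were at 0 in both early 2-cell KO libraries.

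Genes of maternal mRNA fate and maternal effect showed no separation. Storage, deadenylation and decay genes summed to 1.12%, 1.56% and 0.658% in PN5 KO and 0.924% and 1.32% in early 2-cell KO. Ythdc1, a nuclear reader of m6A, had 49, 15 and 144 counts in PN5 KO and 8 and 12 in early 2-cell KO, and Cnot1, the scaffold of the CCR4-NOT deadenylase, had 1, 4 and 23 and then 5 and 1; the shares of both lay above PN5 KO, though the log2 fold change of Ythdc1 was -0.028 with TMM factors. Tut7, which uridylates mRNAs during maternal clearance, had 5, 15 and 59 counts in PN5 KO and 0 in early 2-cell KO, where its PN5 KO share would have given 2.82 pooled counts. Maternal-effect genes summed to 1.14%, 0.711% and 1.21% in PN5 KO and 1.29% and 0.617% in early 2-cell KO. Of 40 listed, 4 could be tested, among them Zbed3 of the subcortical maternal complex (70, 4 and 145 counts, then 2 and 1) and Smarca4, the Brg1 remodeller ATPase (5, 14 and 36, then 5 and 1), whose log2 fold change of 1.33 ± 1.23 (SE) was -0.13 with TMM factors. Of the pluripotency factors only Rif1 was tested, at 15, 24 and 30 counts and then 3 and 0, and its sign turned without PN5 KO replicate 2 or early 2-cell KO replicate 2.

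Spindle, kinetochore and cell-cycle genes summed to 3.28%, 2.81% and 2.65% in PN5 KO and 3.45% and 3.08% in early 2-cell KO. Without Cenpe, the early 2-cell KO sums of 3.45% and 3.08% lay above all PN5 KO sums, the highest of which was 2.56%. Cenpe was at 0 in early 2-cell KO, so leaving it out lowered the PN5 KO sums alone. In Het the sums without Cenpe overlapped, at 2.39%, 2.91% and 2.57% in PN5 and 4.63%, 2.11% and 7.54% in early 2-cell embryos. Anln, a furrow protein, had 0, 3 and 20 counts in PN5 KO and 2 and 3 in early 2-cell KO, the checkpoint protein Mad1l1 had 2, 7 and 1 and then 0 and 10, and the cohesin subunit Stag1 had 6, 18 and 8 and then 0. The sign for Mad1l1 turned without early 2-cell KO replicate 2. Proteasome and oxidative phosphorylation genes were almost unseen, with 1 pooled count of proteasome genes (Psmd1, whose log2 fold change of 0.74 ± 2.02 (SE) was below 0 with 3 other scalings and without early 2-cell KO replicate 2) and none of the nuclear-encoded respiratory genes in early 2-cell KO.

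**Figure D4:**
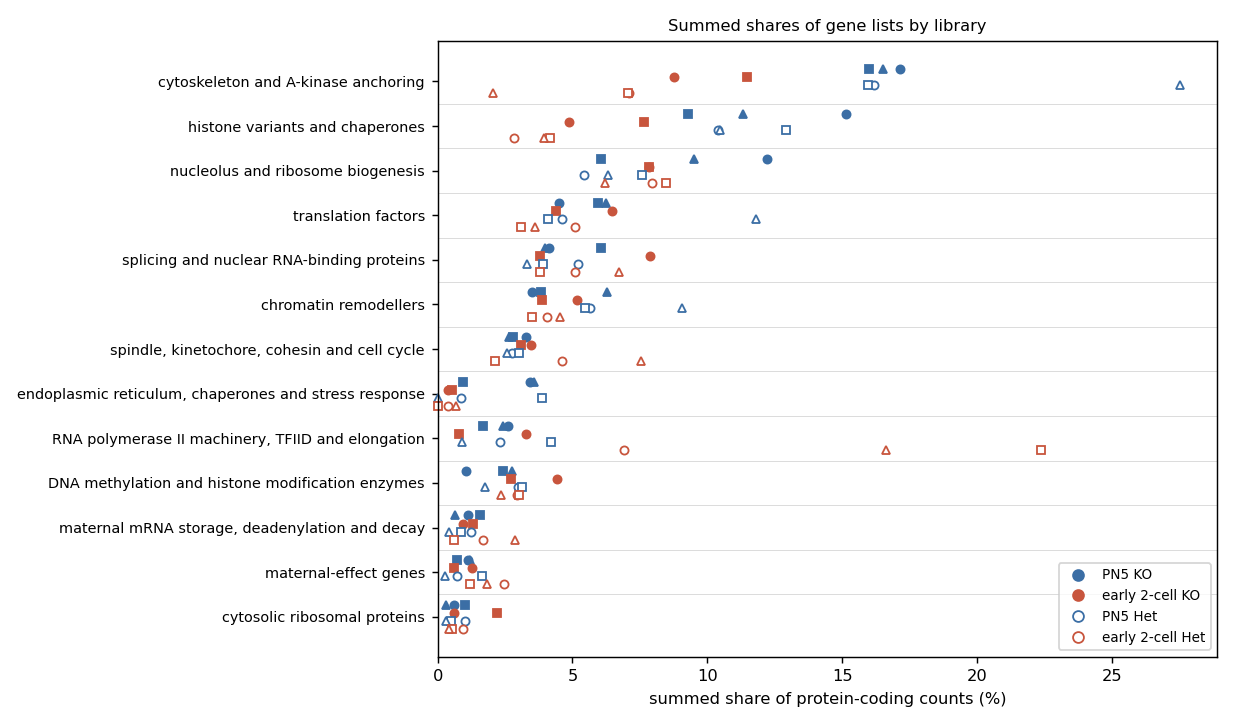
Summed share of protein-coding counts (%) of the 13 gene lists with a mean of at least 0.5% in PN5 KO, with filled symbols for KO and open symbols for Het libraries. The cytoskeletal list and the list of histone variants and chaperones lie lower in early 2-cell libraries of both genotypes. The RNA polymerase II list is high in early 2-cell Het, at 6.89% to 22.4%, and not in early 2-cell KO.

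Set against the same step in Het, no gene differed after adjustment. The difference between the KO and the Het step was tested in the same edgeR model, where 0 of 464 genes passed (0%), with 0.403 as the lowest adjusted p and 32 genes at an unadjusted p under 0.05. DESeq2 and limma-voom also called 0. Cdk11b was the clearest case by counts, at 0 in both early 2-cell KO libraries and at 63, 348 and 1236 counts in early 2-cell Het. Its share was 14.3 ± 7.66% in early 2-cell Het (SD, n = 3) and 1.04 ± 1.16% in PN5 Het, where replicate 3 was at 0, against 1.39 ± 0.548% in PN5 KO. The edgeR adjusted p of the difference was 0.709. Cdk11b also made the whole excess of the RNA polymerase II list in Het, which overlapped between stages without it.

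Septin7 also pointed lower in KO, at 0 in early 2-cell KO and at 11, 2 and 35 counts in early 2-cell Het (edgeR adjusted p = 0.709). That 0 stood against 3.99 pooled counts expected at its PN5 KO share. Its Het shares overlapped, at 0.0813%, 0.148% and 0.371% in PN5 and 1.04%, 0.121% and 0.449% in early 2-cell embryos. In the opposite direction, Taf3 had 0, 0 and 2 counts in early 2-cell Het against 33 and 2 in early 2-cell KO (edgeR adjusted p = 0.682). Ncor1, a corepressor subunit, had the smallest p of the difference (edgeR adjusted p = 0.403). That value rested on 1 library, since Ncor1 had 18 counts in early 2-cell KO replicate 1 and 0 in the other early 2-cell and all PN5 KO libraries, while PN5 Het had 162, 133 and 0. Nsrp1, Chd2 and Eif3a, also among the 5 smallest p in that direction, likewise had all their early 2-cell KO counts in replicate 1. Ncoa2, Kdm7a and Ing4, with the smallest p in the other direction after Cdk11b and Septin7, were at 0 in early 2-cell KO and had 23, 5 and 17 pooled counts in early 2-cell Het. At their PN5 KO shares only 0.655, 1.22 and 0.778 pooled counts would have been expected in early 2-cell KO, so their 0 shows no fall there.

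Across the 234 genes with counts in all 4 groups, the fitted log2 fold changes of the KO and the Het step correlated with a Pearson r of 0.488 and a Spearman rho of 0.493, and 161 genes (68.8%) had the same sign. The groups behind the 2 axes share no library, but genes are not independent replicates and all values share the scaling. Asking for a count in the shallow early 2-cell groups also favours genes that are high there in both genotypes. In KO the median log2 ratio of mean shares was 1.13 over the 270 tested genes with counts in both groups. The part of this choice in the correlation and the shared signs was not tested, so these values are a description.

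**Figure D5:**
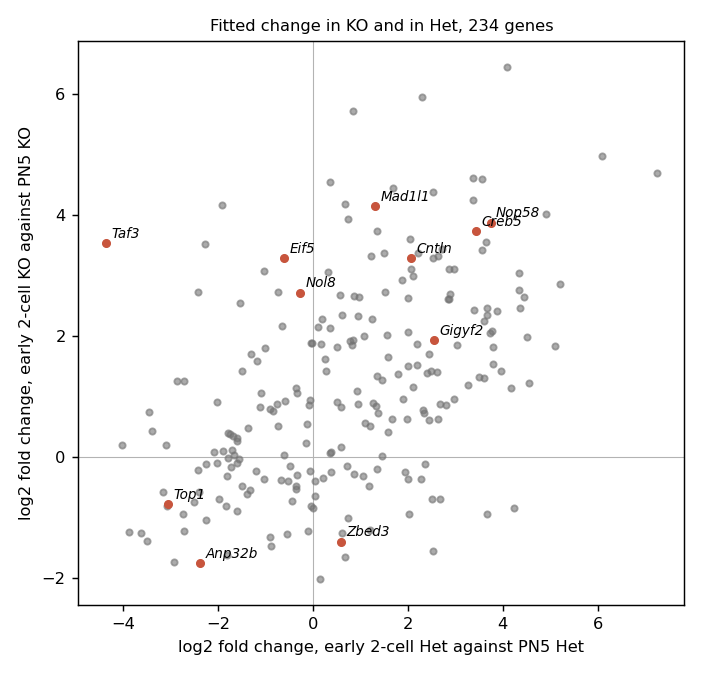
Each point is a gene with counts in all 4 groups (234 genes); the x axis is the fitted log2 fold change of early 2-cell Het over PN5 Het and the y axis that of early 2-cell KO against PN5 KO, with some named genes in red. Cntln, Nop58, Creb5 and Gigyf2 lie in the upper right, and Taf3 lies at the upper left with 3.53 in KO and -4.36 in Het.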

How the data were processed

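The deposited values are estimated counts, 1 whole number per gene and library, without scaling. The steps from alignments to these expected counts, and the handling of reads that match several genes, were not given in the sources used here. StringTie 2.1.4, STAR 2.7.6a, cutadapt and deepTools 3.5.1 stand in the submitters' processing notes, with the GRCm38 build.

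Gene symbols are those of the table. Biotypes, positions and the miRNA sequence came from RefSeq (GRCm38.p6), to which 39101 rows matched by symbol, 164 by an older symbol and 16225 did not. Rows named rRNA_ or mt- were dropped. Library sizes were the counts in protein-coding genes (21443 rows), with no further factor. Library totals were 94052 and 96577 counts in early 2-cell KO and 401550 to 891087 in PN5 KO. Genes passed filterByExpr over the 6 groups, with a minimum count of 10 at the median library size. That minimum is applied as a share of each library, so fewer counts pass in a shallow library. With edgeR 4.0.16 (R 4.3.3), 1 quasi-likelihood model was fitted to all 15 libraries. The call threshold was an adjusted p (Benjamini-Hochberg) under 0.05. The SE given with an edgeR log2 fold change is approximate: its absolute value divided by the square root of the test's F statistic. DESeq2 1.42.0, limma 3.58.1, other scalings, filters and leaving out each library were alternatives. Thinned gene numbers are expected values of sampling without replacement.

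Named genes were the 10 with the smallest p in each direction that had counts in at least 2 libraries of the higher group, filling the places left since none was called; the 10 with the highest mean share in each group; the 5 with the smallest p in each direction of the KO and Het difference; up to 4 tested members per list with the smallest p; and Eif4e1b and Rpl22. The members and lists were chosen with earlier results of these data known.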

Additional observations from a re-analysis of the deposited data

Results flagged for a closer look

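For 9 of the 464 tested genes (1.94%) the early 2-cell KO libraries all lay on one side of PN5 KO and the early 2-cell Het libraries all on the other side of PN5 Het. Of the 49 genes below in KO, 5 (10.2%) lay above in Het, where 6.03% of all tested genes did. Of the 63 above in KO, 4 (6.35%) lay below in Het, where 10.1% of all tested genes did. For 5 of the 9 one of these groups was at 0 where its PN5 share would have given under 3 pooled counts, so their opposite directions are not shown. Pds5b, Nusap1, Nek1, Mia2 and Coil are named after their values were seen, and differences are given on the side with early 2-cell counts. The mean share of Cdk11b was 1.04% in PN5 Het and 14.3% in early 2-cell Het, 13.2 percentage points more, with 0 in early 2-cell KO where 38.2 pooled counts would have been expected (edgeR adjusted p of the difference 0.709). In Het the early 2-cell mean minus the PN5 mean was 0.147 percentage points for Tut7, 0.258 for Pds5b, 0.0914 for Stag1 and 0.111 for Aff4, all at 0 in early 2-cell KO, where 2.82, 1.01, 1.94 and 1.05 pooled counts would have been expected. In KO it was 0.132 percentage points for Nusap1, 0.121 for Nek1, 0.0689 for Mia2 and 0.148 for Coil, from 6, 5, 3 and 5 pooled early 2-cell counts. Nusap1 was at 1.07% in PN5 Het and 0.153% in early 2-cell Het, and the other 3 were at 0 in early 2-cell Het, where 6.06 (Nek1), 3.38 (Mia2) and 1.19 (Coil) pooled counts would have been expected. None of these differences between KO and Het passed, with edgeR adjusted p of 0.709 to 0.902.

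Among rows outside the protein-coding genes, the comparison left out some of the most counted ones. The row CT010467.1, with no match in the annotation used, held 2.36%, 31.1% and 0.978% of the counts left without rRNA and mitochondrial rows in PN5 KO and 27.9% and 6.20% in early 2-cell KO, a mean of 17.0% there, and its ranges overlapped. Mir6236 held 2.85%, 2.25% and 0.958% in PN5 KO and 5.74% and 5.09% in early 2-cell KO, a mean of 5.42%, without overlap. The rRNA rows were dropped by name alone, and whether reads of CT010467.1 and Mir6236 came from other RNAs, such as rRNA, was not tested. The mature sequence of Mir6236 in RefSeq (GRCm38.p6, chr9:110281353-110281371, + strand), shown because it identifies the most counted miRNA row, is given with the seed, bases 2 to 8, in capitals.
mmu-miR-6236: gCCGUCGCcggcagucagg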

How the results depend on the processing

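For early 2-cell KO against PN5 KO, edgeR called 0 genes under every scaling and filter run except without a low-count filter, where it called 1 (Ncor1); DESeq2 called 8 of the 166 genes it gave an adjusted p and limma-voom 1. Leaving out each of the 5 libraries in turn gave 0 calls each time, with 18 to 35 genes at an unadjusted p under 0.05 against 33. For the difference between the KO and Het steps the count was 0 under every alternative except 1 (Ncor1) without a low-count filter. For the Het step edgeR called 0, and 1 among genes with a mean of at least 20 counts, DESeq2 called 27 of 368 and limma-voom 8. With the replicate number as a block, edgeR called 0 in KO (20 genes at an unadjusted p under 0.05), 0 for the difference (12) and 0 in Het (36); the labels share only the number, and same-numbered KO libraries deviated with correlations of -0.0121 and -0.0476, so no pairing was assumed. The sign of several log2 fold changes turned, and the cause was not tested. With TMM factors Rbm25 came to -0.081, Smarca4 to -0.13, Ythdc1 to -0.028, Mia2 to -0.040, Rps14 to -0.57, Psmd1 to -0.67, Hmgn5 to -0.46 and Nusap1 to -0.23; with DESeq2 size factors the last 4 came to -0.27, -0.42, -0.23 and -0.019, and with all counts as library size to -0.41, -0.48, -0.15 and -0.16. With limma-voom Supt16 came to 1.00, Dek to 1.54, Aff4 to 0.26, Supt5 to 1.88 and Pds5b to 0.69. Over the 5 left-out libraries the values ran from -0.51 to 0.23 for Nexn, -8.78 to 2.92 for Eif3a, -5.39 to 5.74 for Chd2, -7.51 to 0.57 for Rif1, -5.55 to 4.26 for Eif5, -5.18 to 5.78 for Mad1l1 and -5.15 to 1.87 for Psmd1, and from -0.45 to 11.25 for the KO and Het difference of Eif3a. The early 2-cell KO mean minus the PN5 KO mean of genes detected was 17.1 at equal depth and -636 for genes with at least 2 counts unthinned, which compares libraries at their own depth. Sequence features of the encoded proteins were planned and not run, since no protein sequences were used here. With 2758 pooled protein-coding counts in early 2-cell KO, 342 of 464 genes could not have been seen to fall. The spread between replicates (common dispersion 1.77 in edgeR) is another limit, and no comparison of these limits was made.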

Other observations

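Structural and nuclear noncoding RNAs took part of the counts left without rRNA and mitochondrial rows, and several differed widely between replicates. Malat1, a nuclear long noncoding RNA, was at 1.80%, 3.66% and 2.60% in PN5 KO and 0.464% and 1.66% in early 2-cell KO, below all PN5 KO libraries. The snoRNA row Gm26109 was at 0.334%, 0.351% and 0.0417% in PN5 KO and 3.45% and 0.941% in early 2-cell KO, and the snoRNA row Gm25848 at 0.156%, 0.0834% and 0.00439% and then 0.957% and 0.609%, both above all PN5 KO libraries. Rn7sk, which holds the elongation factor P-TEFb inactive, was at 0.199%, 1.50% and 0.0197% in PN5 KO and 0.116% and 1.77% in early 2-cell KO, and overlapped. Protein-coding genes took 83.0%, 51.8% and 87.7% of these counts in PN5 KO and 47.1% and 62.8% in early 2-cell KO. These rows were picked for their size after the data were seen, and no test was made on them.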
